A study of Ovis aries with 10 samples.

Results

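Intergenic circular RNAs (circRNAs) are the 248 circRNAs that the deposited expression table files under an intergenic feature, among 8721 circRNAs listed in at least 1 of the 10 libraries of the series. They were chosen by that label alone. Another 7926 circRNAs were labelled exonic and 547 intronic. The sheep were of the small-tailed Han breed, with 5 libraries in a sham-operated group and 5 in an ovariectomized group, whose main source of circulating estrogen was removed. Longissimus dorsi, a muscle of the back, is the labelled tissue, and primary myoblasts are the labelled cell type. The protocols describe culturing muscle cells with graded estradiol, but no sample is labelled with a dose, so whole muscle and cultured cells cannot be told apart by label. The labels give no age for the sheep and do not state that each library is a separate animal, so every p-value measures the spread between these libraries.

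A circRNA forms when the spliceosome joins a downstream splice site back to an upstream one, which closes the RNA into a ring without free ends. Reads across that back-splice are called junction reads and are the count used for each circRNA. Most circRNAs are made from exons of protein-coding genes, and rings are often stable because exonucleases cannot attack them. A circRNA filed as intergenic is one for which the caller's annotation gave no host gene, which depends on how complete that annotation was.

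Junction reads summed to between 35731 and 67061 per library, and intergenic circRNAs took 9244 of them in all, or 2.08%. The labelled cell type was set against host genes of the listed circRNAs. Of 21 genes of mature muscle fibers, 16 hosted circRNAs, among them TTN, NEB and RYR1, with 1488 to 2132 reads per sham library and 1654 to 1777 per ovariectomized library. Among 10 genes of myoblasts and proliferation, DES alone hosted circRNAs, with 3 reads in all. The defining myoblast genes MYOD1, MYF5, PAX7 and MYOG hosted none. Endothelial markers hosted circRNAs for 3 of 5 genes, adipocyte markers for 2 of 5, and fibroblast and immune or blood markers for 0 of 5 each. A gene can be transcribed without giving a circRNA, so these counts describe circRNA hosts and not the cells present.

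The intergenic class was made of many rarely seen circRNAs and a few abundant ones. Their median was 8.5 junction reads over all 10 libraries, 133 had fewer than 10, and 17 had more than 100. The 10 most abundant held 4806 reads, or 52% of the class. Listing followed the same pattern. A single library listed 121 (48.8%), 2 to 4 libraries listed 73, 5 to 9 listed 43, and all 10 listed 11 (4.44%). Of exonic circRNAs, 36.5% were listed in 1 library and 9.75% in all, and of intronic circRNAs 46.8% and 4.02%. Median junction reads over all 10 libraries were 10 for exonic and 7 for intronic circRNAs, so the pattern was not particular to the intergenic class. Sham libraries alone listed 73 intergenic circRNAs, ovariectomized libraries alone 62, and libraries of both groups 113. The share listed in 1 group only was thus 54.4%, against 45% of exonic and 56.7% of intronic circRNAs. Those listed once had a median of 4 reads and at most 28, and the smallest count in the file is 2. A library that does not list a circRNA is printed as 0 below, which may mean fewer than 2 reads or removal by a filter of the caller.

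Their positions were set against the ARS-UI_Ramb_v3.0 gene table. The build of the files is not given in the sources used here, but 10885 of 10916 circRNAs with a host gene in that table (99.7%) lay inside their host's interval. Of the 248, 76 lay wholly inside a gene, 98 overlapped 1 or more genes in part, and 74 touched no gene. Their shares of intergenic reads were 39.1%, 24.1% and 36.8%. The 76 fell in 46 genes, with 39 circRNAs in protein-coding genes and 37 in long noncoding RNA (lncRNA) genes. The table carries no strand, so a gene's strand was known only where it also hosted circRNAs. It matched that of the intergenic circRNA for 14 of the 76, was opposite for 1 and was unknown for 61. The circRNAs that touched no gene were shorter in the genome, with a median span of 4109.5 bases, against 11266.5 inside genes and 18335 for partial overlap. A longer span can more easily touch a gene or cross its edge, so these sets are not independent of span.

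A subset reused splice ends of circRNAs that do have a host. In all, 32 (12.9%) shared exactly 1 back-splice coordinate, on the same strand, with a hosted circRNA, and none shared both. These 32 held 1845 junction reads and shared ends with circRNAs of 26 hosts. For 26 of them the shared coordinate was the end that comes first in the transcript, and for 6 the end that comes last. On the minus strand were 25, and on the plus strand 7. Examples with many reads had PANK2, JCHAIN, YIPF5, SRSF1 and PMS1 as the host at the shared end. PANK2 is a kinase of coenzyme A synthesis, JCHAIN joins the units of polymeric immunoglobulins, YIPF5 is a membrane protein of the early secretory pathway, SRSF1 is a splicing factor and PMS1 belongs to the mismatch repair family.

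Intergenic circRNAs lay on the minus strand more often than circRNAs of the other classes. Of the 248, 151 (60.9%) were on the minus strand, against 48.4% of exonic and 49.2% of intronic circRNAs. Among those inside a gene 54 were minus and 22 plus, while among those touching no gene 39 were minus and 35 plus. Within each library the share on the plus strand was lower for intergenic than for exonic circRNAs. Its median over libraries was 35.4% against 51.1%, the mean difference was -16.5 ± 4.03 percentage points (SD, n = 10), and all 10 libraries went the same way (exact sign-flip permutation test, two-sided, adjusted p = 0.00293 over 6 measures). Few places carried a large part of it. Without the 5 leading loci of overlapping circRNAs described below, the difference was -8.73 points (exact permutation, adjusted p = 0.00293), and 109 of the other 203 circRNAs (53.7%) were on the minus strand. Counted by locus, 92 of 171 (53.8%) were on the minus strand. A circRNA's strand is fixed and the same circRNAs recur between libraries, so these p-values do not measure a spread between loci.

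They also spanned more of the genome than exonic circRNAs, while their spliced products were slightly shorter. The span from end to end had a median of 13207 bases and ran from 185 to 99384. The spliced length, which adds up the segments the file gives, had a median of 259 bases and ran from 24 to 959. A single segment was given for 96 circRNAs, 2 for 80, and 3 or more for 72, with at most 6. For 130 (52.4%) the segments reached both back-splice ends, against 69.7% of exonic circRNAs, so the spliced length of the others may be incomplete. Within libraries the median span was 12590.5 against 7935.2 bases for exonic circRNAs. The mean difference was 4717.4 ± 1727.6 bases, higher in 10 of 10 libraries (exact sign-flip permutation test, adjusted p = 0.00293). Without the 5 leading loci it was 2094.2 bases (exact permutation, adjusted p = 0.00469). Median spliced length was 290.8 against 318 bases, a difference of -24.7 ± 12.9 bases and lower in 10 of 10 libraries (exact permutation, adjusted p = 0.00293).

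Listed in 1 library and no other were 16.6% of a library's intergenic circRNAs against 9.13% of its exonic ones, as medians over libraries. The difference was 7 ± 3.94 percentage points and was positive in 10 of 10 libraries (exact permutation, adjusted p = 0.00293). Junction reads per listed circRNA, with medians of 5.5 and 5, did not pass the test (exact permutation, adjusted p = 0.25). Exact sign-flip tests over 10 libraries cannot give a p below 0.00195, and the same circRNAs recur between libraries, so the 10 differences are not fully independent. Strand, span and spliced length are fixed for each circRNA, so their p-values describe agreement between libraries and not a spread between loci. Against intronic circRNAs, which also tend to be seen in few libraries, span was larger by 5552.9 ± 1818.5 bases and the share on the plus strand lower by 20.2 points (difference -20.2 ± 6.12, both with adjusted p = 0.00586, exact permutation). Spliced length (difference -2.4 ± 13.8 bases, adjusted p = 0.806) and the share listed once (0.00237 ± 4.05 points, adjusted p = 0.998) did not pass the exact permutation test against intronic circRNAs.

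**Figure D1:**
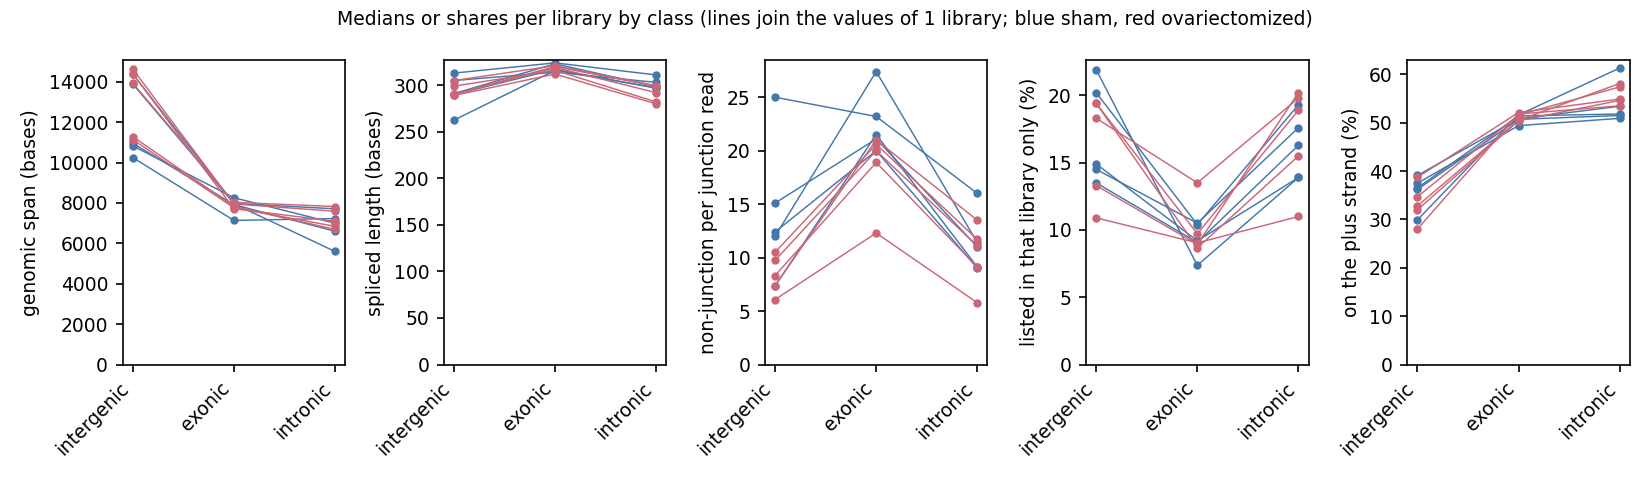
Medians (span and spliced length in bases, non-junction reads per junction read) or shares (in %) of circRNAs listed in each library, by class. Each line joins the 3 classes of 1 library, blue for sham and red for ovariectomized. Span lay between 10250 and 14628.5 bases for intergenic circRNAs, above the 7136 to 8261 bases of exonic ones, and the share on the plus strand lay between 28% and 39.1%.

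The table also gives non-junction reads. No source used here defines them, and they are taken as reads at a circRNA's ends that do not cross its junction. Their number per junction read ranged from 0 to 57333.4 among the 248, with a median of 9.26 and quartiles of 1.46 and 53.3. At the low extreme, 47 circRNAs (19%) had fewer non-junction than junction reads, against 1.84% of exonic circRNAs, and 17 had none. At the high extreme, 50 (20.2%) had more than 100 for each junction read, against 15.1% of exonic circRNAs. Both extremes thus held a larger share than among exonic circRNAs, but the class lay lower. Its median was below the exonic median of 24.9, and its upper quartile was below the exonic one of 60.2. Of intronic circRNAs, 8.59% had fewer non-junction than junction reads and 5.48% had more than 100 for each junction read. Within libraries the median ratio was 10.1 against 20.8 for exonic circRNAs, a difference of -9.2 ± 5.05 that was negative in 9 of 10 libraries (exact permutation, adjusted p = 0.00469). Against intronic circRNAs the difference was 0.612 ± 4.09 and did not pass the test (exact permutation, adjusted p = 0.806).

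**Figure D2:**
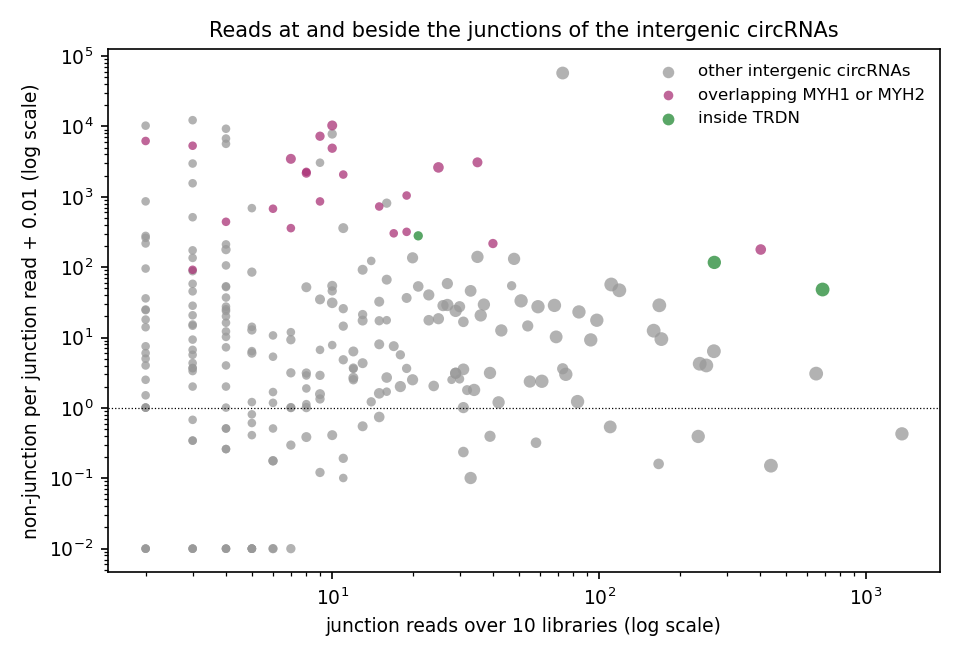
Each point is 1 of the 248 intergenic circRNAs, with junction reads summed over 10 libraries on the horizontal axis and non-junction reads per junction read plus 0.01 on the vertical axis (both log scales). Larger points were listed in more libraries, and the dotted line marks equal numbers of both reads. CircRNAs overlapping MYH1 or MYH2 lie high at low junction counts, except novel_circ_0010821 at 403 junction reads. The most abundant circRNA, at 1362 junction reads, lies below the line.

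The highest ratio belonged to novel_circ_0003475 at chr2:250094208-250132264 on the plus strand, a circRNA singled out after its values were seen. Its span of 38057 bases overlaps 6 genes that have only LOC symbols, LOC121818849 among them. It had 73 junction reads and 4185340 non-junction reads over 8 libraries. In sham replicates 1 to 5 the junction reads were 6, 6, 13, 6 and 6. In ovariectomized replicates 1 to 5 they were 0, 0, 12, 8 and 16. Of 5268607 non-junction reads in the class, most thus lay at this 1 circRNA. Ovariectomized replicates 1 and 2 did not list it, and their intergenic non-junction totals were 141453 and 98729, against 452847 to 1027717 in the other 8 libraries.

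Some intergenic circRNAs overlapped each other. Merging those that overlap on 1 strand gave 171 loci, of which 29 held 2 or more circRNAs. Those 29 had 106 circRNAs and 5397 reads (58.4% of the class). Of these 29, the 5 with the most reads held 45 circRNAs and 41% of the reads. By chromosome the most circRNAs lay on chromosomes 2 (28), 11 (24), X (23) and 1 (17). They made up 9.75% of all circRNAs on X and 9.2% on chromosome 11, against 2.84% of all circRNAs. Single loci, described below, weighed on both shares. Of the 24 on chromosome 11, 22 lay at the locus over MYH1 and MYH2, and 10 of the 23 on X lay at 1 locus.

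The leading locus covered chrX:66317428-66373974 on the minus strand and touched no gene of the table. It held 10 circRNAs built from 5 start (lower) and 4 end (upper) coordinates, with 1070 junction reads. In the gene table it lies between MIR374B and MIR374A, and the nearest circRNAs with a host belong to PHKA1 and RLIM. In humans these microRNA genes lie within FTX, a noncoding gene of the X-inactivation center. Normalized junction reads (counts divided by a scaling factor of each library) in sham replicates 1 to 5 were 109.3, 123.9, 100.2, 113.2 and 85.8. In ovariectomized replicates 1 to 5 they were 88.9, 95.6, 99.2, 110.1 and 117.1. The groups overlapped, at 106.5 ± 14.3 and 102.2 ± 11.3 (SD, n = 5 each), and no library stood apart.

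Its main product, novel_circ_0017350, spanned 19458 bases at chrX:66339047-66358504 with a spliced length of 456 bases in 4 segments, and had 3.06 non-junction reads per junction read. Counts in sham replicates 1 to 5 were 51, 67, 49, 70 and 40, and in ovariectomized replicates 57, 62, 55, 75 and 124. A shorter circRNA, novel_circ_0017349, with the same start coordinate but a span of 1474 bases, had 51 reads in all. It was listed in 9 libraries, with a ratio of 33.2. The other 8 circRNAs of the locus had between 5 and 98 reads, so 1 isoform held most of the locus in these libraries.

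The second locus lay inside TRDN, which encodes triadin, an anchor of the calcium release complex of the muscle sarcoplasmic reticulum. Its 3 circRNAs at chr8:15068123-15087088 on the plus strand ended at the same coordinate. They had 978 junction reads and 72 non-junction reads per junction read. The files name TRDN, by its gene ID, as the host of 1 exonic circRNA on the same strand, with 3 reads. Exonic circRNAs whose given host is LOC121820153 overlapped the locus, and novel_circ_0008811 shared its start coordinate with them. That host's ID has no match in the gene table.

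TRDN circRNAs varied more between libraries than between groups. Counts of novel_circ_0008816 (span 6237 bases, 240 spliced) in sham replicates 1 to 5 were 16, 10, 43, 25 and 267. In ovariectomized replicates 1 to 5 they were 12, 43, 35, 229 and 7. Sham replicate 5 and ovariectomized replicate 4 stood far above the other 8 libraries, and the groups overlapped. The longer novel_circ_0008811 (span 18966 bases, 354 spliced) showed no such excess. It had 42, 0, 20, 28 and 35 reads in the sham libraries and 22, 51, 18, 44 and 10 in the ovariectomized ones. For the locus, normalized reads were 104.1 ± 119.3 and 89 ± 94.2 (SD, n = 5 each).

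The third locus held the most circRNAs. It covered chr11:29208522-29329833 on the minus strand and crossed MYH1, MYH2 and MYH8, the lncRNA LOC132657410 and LOC101111980. MYH1 and MYH2 encode the fast myosin heavy chains of type IIX and IIA fibers, and MYH8 a perinatal form. Its 22 circRNAs used 19 starts and 19 ends, so few shared a coordinate. They had 670 junction reads and 640250 non-junction reads, or 955.6 for each junction read. Myosin heavy chain genes share long stretches of near-identical sequence, so junctions between MYH1 and MYH2 are reported as uncertain.

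Of the 22, novel_circ_0010821 alone held 403 reads and linked the MYH1 and MYH2 intervals across 26211 bases at chr11:29286204-29312414. Sham replicates 1 to 5 had 81, 62, 0, 0 and 0 reads, and ovariectomized replicates 96, 0, 0, 164 and 0. It was either abundant or not listed, in both groups. Another pair, novel_circ_0010835 (19 reads) and novel_circ_0010836 (19 reads), appeared in sham replicate 5 only and in sham replicate 4 only. The remaining 19 had 2 to 40 reads in 1 to 4 libraries. For the whole locus normalized reads ran from 9.7 to 138 in sham libraries and from 20.5 to 147.8 in ovariectomized ones.

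PANK2 marked the fourth locus, at chr13:51008338-51028340 on the minus strand, with 7 circRNAs, 623 reads and 3 start and 3 end coordinates. All 7 overlapped PANK2 in part, and 3 of them shared an end with a PANK2-hosted circRNA. The most abundant were novel_circ_0012040 and novel_circ_0012042, both listed in all 10 libraries and both starting at the same coordinate. Reads of novel_circ_0012040 (span 11745 bases) were 17, 21, 35, 26 and 23 in sham replicates 1 to 5 and 12, 30, 23, 23 and 59 in ovariectomized ones. Reads of novel_circ_0012042 (span 15706 bases) were 19, 18, 23, 27 and 17, and 9, 27, 16, 20 and 62. Both were highest in ovariectomized replicate 5, the deepest library. After scaling, the locus had 57.9 ± 10.2 and 59.8 ± 28.7 normalized reads (SD, n = 5 each).

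The fifth locus lay inside the lncRNA gene LOC114113196 at chr2:178915022-178924928 on the minus strand. It had 447 reads, 440 of them from novel_circ_0003030, which spans 1682 bases and is 699 bases long in 3 segments. Non-junction reads were few here, at 0.141 per junction read for this circRNA. Its reads were 20, 29, 58, 29 and 54 in sham replicates 1 to 5 and 26, 23, 25, 58 and 118 in ovariectomized replicates 1 to 5. All 10 libraries listed it and the groups overlapped, at 41.3 ± 16.3 and 40 ± 21.4 normalized reads (SD, n = 5 each).

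**Figure D3:**
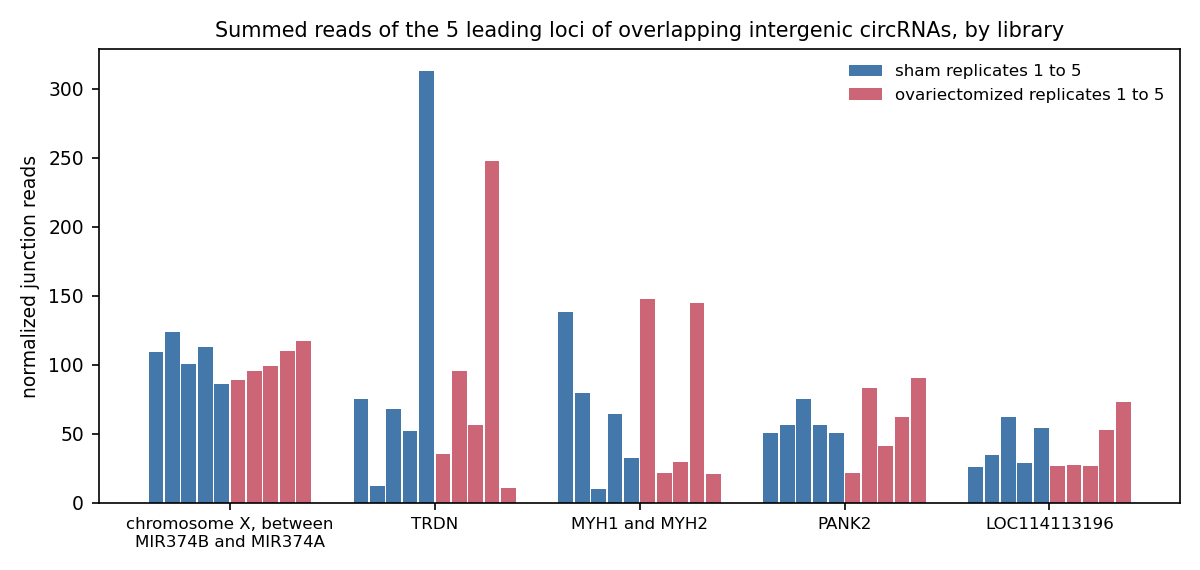
Normalized junction reads summed over the circRNAs of each of the 5 leading loci, 1 bar per library, in replicate order within each group. The X chromosome locus is even over libraries (85.8 to 123.9), while the TRDN locus reaches 313 in sham replicate 5 and 247.9 in ovariectomized replicate 4.

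The most abundant intergenic circRNA belonged to no such locus. Away from any gene of the table, novel_circ_0000941 at chr1:245535660-245536129 on the plus strand spans only 470 bases, with 326 spliced bases in 2 segments. DIPK2A and SLC9A9 are its neighbors in the gene table. It had 1362 junction reads and 0.418 non-junction reads for each. Sham replicates 1 to 5 had 95, 177, 136, 89 and 0 reads, and ovariectomized replicates 132, 141, 109, 266 and 217. Sham replicate 5 did not list it at all, while the other 9 libraries had 89 or more.

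A smaller example of the same on-or-off listing was novel_circ_0009833, singled out after its values were seen, at chr9:63430342-63431309 on the minus strand with no gene. Its reads were 0, 0, 0, 14 and 27 in sham replicates and 0, 44, 0, 82 and 0 in ovariectomized ones, with 25 non-junction reads in all. Another, novel_circ_0014809, had 28 reads in sham replicate 1 and was listed nowhere else. It lies within LOC101118514 on chromosome 20 and crosses DQA, a class II histocompatibility gene.

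Several circRNAs listed in all 10 libraries had a smaller range. The JCHAIN locus at chr6:86764908-86771676 gave novel_circ_0007698 and novel_circ_0007697, which share a start coordinate and lie inside the lncRNA LOC105612199. Reads of novel_circ_0007698 were 13, 22, 38, 29 and 31 in sham replicates 1 to 5 and 18, 17, 12, 30 and 42 in ovariectomized ones. Those of novel_circ_0007697 were 17, 12, 22, 15 and 19, and 18, 11, 15, 24 and 18. Both had lower mean normalized reads after ovariectomy, at 28.8 ± 8.67 against 20.1 ± 5.82 and at 18.8 ± 4.2 against 15.5 ± 4.34 (SD, n = 5 each), with overlapping groups.

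In HNRNPU, which encodes a nuclear RNA-binding protein, novel_circ_0011278 had 9, 8, 14, 10 and 13 reads in sham libraries and 14, 15, 11, 9 and 16 in ovariectomized ones. Partly over ITM2B, an integral membrane protein gene, novel_circ_0010234 had 6, 13, 11, 16 and 22, and 27, 16, 8, 15 and 34. Partly over YIPF5, novel_circ_0006922 had 17, 10, 18, 12 and 12, and 26, 22, 19, 17 and 7. None of these separated the groups.

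The series compared sham with ovariectomized sheep to ask how loss of ovarian estrogen bears on muscle. As a class, intergenic circRNAs took 1.89, 2.22, 1.48, 2.2 and 1.98% of the reads of sham replicates 1 to 5 and 1.9, 2.19, 1.71, 3.18 and 2.01% in ovariectomized replicates 1 to 5. Each share has a 95% Wilson interval of about this size: 1.75 to 2.03% for sham replicate 1 and 3.03 to 3.35% for ovariectomized replicate 4. Such intervals cover counting error only. Ovariectomized replicate 4 stood above the other 9 libraries, which overlapped. Group means were 1.95 ± 0.301% and 2.2 ± 0.577% (SD, n = 5 each), a difference of 0.246 points, or -0.000438 points without ovariectomized replicate 4. It was 0.0774 points with the most abundant circRNA of SENP6 left out of the total, and 0.127 points without novel_circ_0000941. That library also had the highest novel_circ_0000941 count of all, and its 229 reads of novel_circ_0008816 were among the 2 highest.

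The number of intergenic circRNAs listed was 64, 69, 67, 94 and 74 in sham replicates 1 to 5 and 62, 72, 64, 75 and 82 in ovariectomized ones. The means of 73.6 ± 12 and 71 ± 8.19 (SD, n = 5 each) differed by less than either spread. Counting those with at least 5 junction reads, the difference was 6.4 in place of -2.6. Median non-junction reads per junction read were 7.35, 12, 25, 12.4 and 15.1 in sham libraries and 9.74, 7.38, 8.32, 10.5 and 6.08 in ovariectomized libraries. The means were 14.4 ± 6.57 and 8.4 ± 1.78, the ranges overlapped, and sham replicate 3 was the highest. These class-wide values are given with their spread and without a test.

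**Figure D4:**
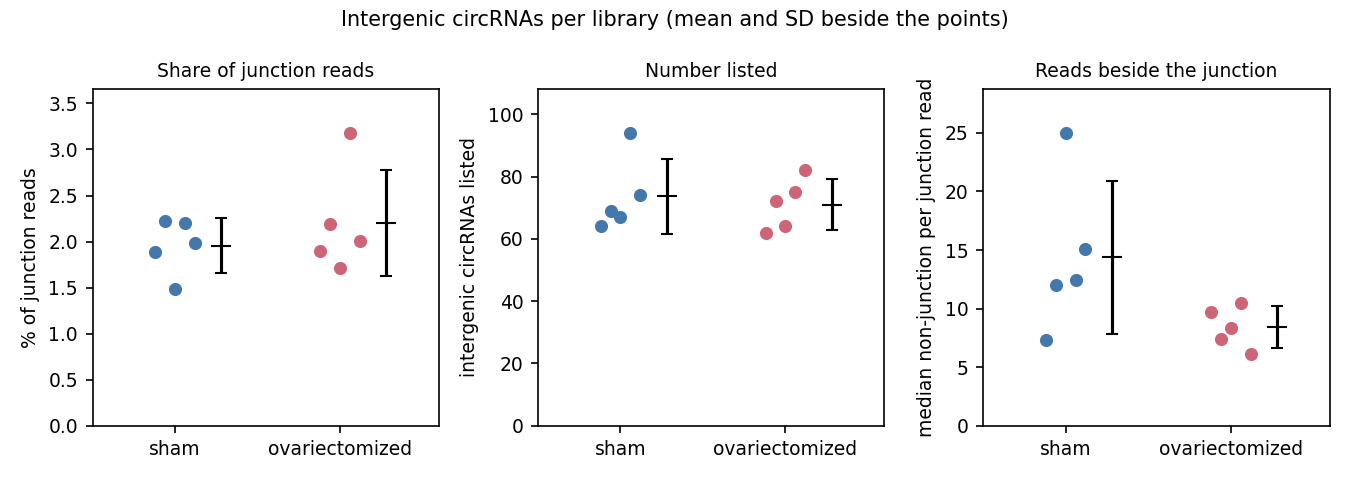
Share of junction reads in intergenic circRNAs (%), number of them listed, and median non-junction reads per junction read, 1 point per library in replicate order, with the group mean and SD beside the points. The groups overlap in all 3 panels, and the single high share is ovariectomized replicate 4 at 3.18%.

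Single circRNAs were tested over the whole table with limma voom, which models log2 reads with a precision weight for each count. Of the 248, 14 passed the filter (10 scaled reads in at least 5 libraries), and they held 55.5% of intergenic reads. None changed at an adjusted p under 0.05, where the background is 0% of 738 circRNAs tested. At an unadjusted p under 0.05 limma called 0 of the 14, against 5.69% of all tested. Estimates were above 0 for 5 and below 0 for 9, with a median log2 fold change of ovariectomized over sham of -0.11, against -0.04 over all tested circRNAs. With library totals as the only scaling, the medians moved to 0.08 and 0.19, so the signs of small estimates rest on the scaling. The median standard error of the 14 was 0.39 on the log2 scale.

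The smallest limma p belonged to novel_circ_0009373, a circRNA of a single 264-base segment inside LOC114116085 at chr8:74171233-74171496. Its reads were 0, 7, 6, 19 and 0 in sham replicates 1 to 5 and 15, 11, 8, 14 and 30 in ovariectomized ones. The ovariectomized libraries all listed it and 2 sham libraries did not, but sham replicate 4 reached into the other group. Its log2 fold change was 2.06 ± 1.11 (SE, limma adjusted p = 0.781, unadjusted p = 0.0845). Leaving out 1 library at a time, this circRNA passed the filter in only 5 fits, with estimates from 1.31 to 2.45. For novel_circ_0007698 at the JCHAIN locus the log2 fold change was -0.49 ± 0.31 (limma adjusted p = 0.836).

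Large fitted values elsewhere rested on 1 library. For novel_circ_0000941 the log2 fold change was 1.82 ± 1.43 (SE, limma adjusted p = 0.847), and 0.14 without sham replicate 5, which did not list it. For novel_circ_0002051, at chr2:112464977-112478958 on the plus strand with no gene and ANXA10 as a neighbor, it was -1.52 ± 1.39 (limma adjusted p = 0.847). Its reads were 19, 29, 14, 17 and 12, and 16, 76, 35, 17 and 0, and without ovariectomized replicate 5 the estimate was 0.59. For the leading X chromosome circRNA novel_circ_0017350 the estimate was 0.11 ± 0.23 (limma adjusted p = 0.939).

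**Figure D5:**
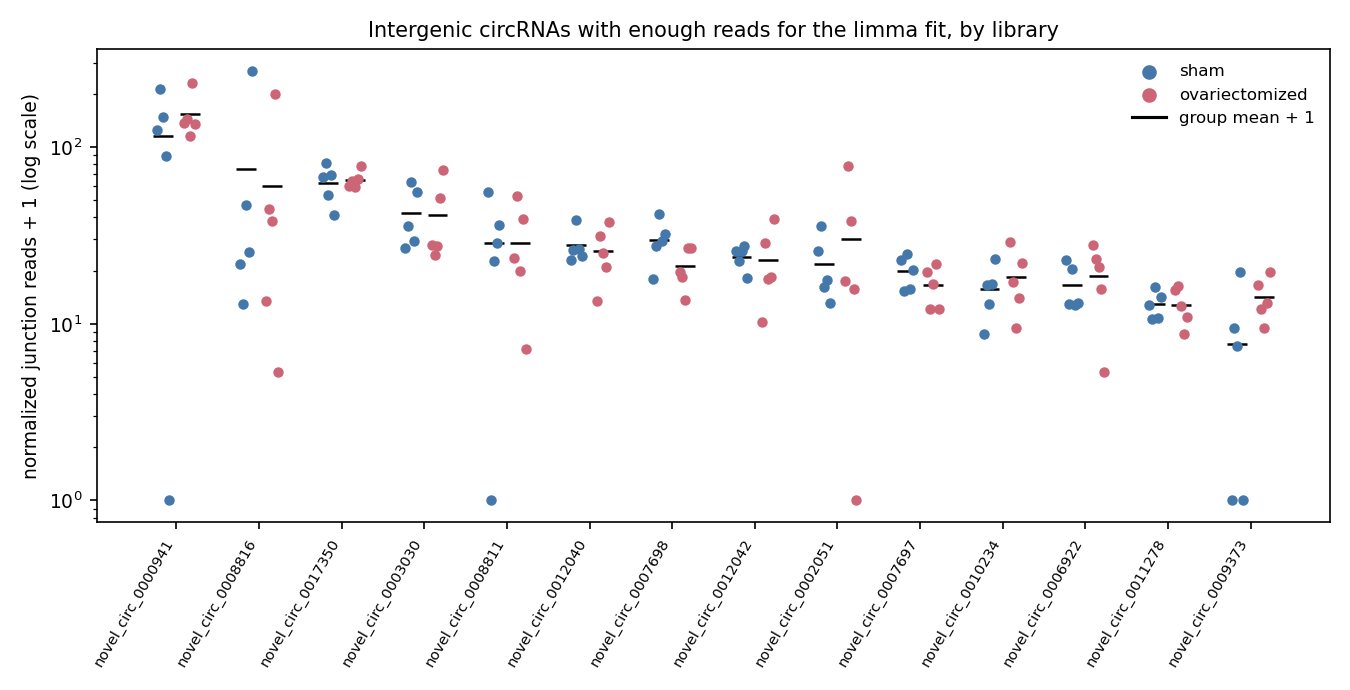
Normalized junction reads plus 1 (log scale) of the 14 intergenic circRNAs in the limma fit, in order of total reads, 1 point per library, with bars at the group mean plus 1. Points at 1 are libraries that did not list the circRNA, such as sham replicate 5 for novel_circ_0000941, and no circRNA separates the groups.

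The exact permutation test of normalized reads reached further down, to the 54 intergenic circRNAs listed in at least 5 libraries, within 2690 such circRNAs of all classes. None passed at an adjusted p under 0.05 (background 0%), and the smallest adjusted p was 0.86. No intergenic circRNA had groups that did not overlap, against a background of 0.892%. At an unadjusted p under 0.05 this test called 2 of the 54 (3.7%), against 5.54% of all tested. Both were higher after ovariectomy, and 2.19% of all tested were called in that direction at an unadjusted p under 0.05. With 5 against 5 libraries the exact test's smallest p is 0.00794. After adjustment over 2690 circRNAs, that p could pass only if far more circRNAs reached it than the 24 whose groups did not overlap. The adjusted exact result therefore cannot decide whether a single circRNA changed. Limma voom with this wider filter called 0 of 54 after adjustment, against 0.149% of all tested. At an unadjusted p it called 2, against 7.92%, and these were novel_circ_0006525 and novel_circ_0009373. With no filter limma called 0 of 248 after adjustment, against 0.344%, and 9 at an unadjusted p, against 6.19%.

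The exact test's 2 circRNAs were novel_circ_0011145 and novel_circ_0006525. Leaving out 1 library at a time, the unadjusted p of novel_circ_0011145 ran from 0.0317 to 0.111 and was 0.05 or more in 7 of 10 cases, all but those without sham replicate 1 or ovariectomized replicate 2 or 3 (exact permutation). That of novel_circ_0006525 ran from 0.0238 to 0.0794, and was 0.05 or more in 4 of 10 (exact permutation). Those were the cases without sham replicate 2, 3, 4 or 5. Inside SRSF1, on the strand of the circRNA that SRSF1 hosts, novel_circ_0011145 at chr11:8492630-8495842 had 9, 3, 5, 3 and 8 reads over the sham libraries and 14, 9, 6, 18 and 36 over the ovariectomized ones, in replicate order. Normalized reads were 6.35 ± 3.6 and 13.6 ± 6.19 (SD, n = 5 each), with overlap (exact permutation p = 0.0476, adjusted p = 0.86). Touching no gene, novel_circ_0006525 at chr4:9850895-9887927 had 3, 0, 0, 0 and 0 reads, and 2, 3, 8, 11 and 4. All 5 ovariectomized libraries listed it and 1 sham library did, at 0.781 ± 1.75 and 5.12 ± 3.58 normalized reads (exact permutation p = 0.0317, adjusted p = 0.86).

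In the authors' deposited table of their own comparison, 1 of the 248 had a p under 0.05, against 1.35% of all circRNAs. This was novel_circ_0011145, with group means of 13.4 after ovariectomy and 6.1 after sham surgery, a log2 fold change of 1.17 when turned to ovariectomized over sham, p = 0.0397 and adjusted p = 0.966 in the authors' deposited table.

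At the ends of the size range, with at least 3 libraries listing each, the longest were novel_circ_0000240 (99384 bases), novel_circ_0003820 (86729 bases) and novel_circ_0011958 (64078 bases). Their spliced lengths were 313, 323 and 276 bases, against a class median of 259 and upper quartile of 330. Reads of novel_circ_0011958 were 0, 2, 4, 3 and 0 in sham replicates 1 to 5 and 0, 7, 7, 10 and 22 in ovariectomized ones, with overlap (exact permutation p = 0.0556, adjusted p = 0.871). The shortest were novel_circ_0009373 (264 bases), novel_circ_0003376 (410 bases) and novel_circ_0000941 (470 bases). Of these, novel_circ_0003376 lay partly over TRNAU1AP and was listed in 4 libraries with 31 reads.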

How the data were processed

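The deposited expression table packs whole-number junction read counts and non-junction read counts into lists beside sample names, per the file headers. The authors' comparison table gives mean normalized read signal for either group, a log2 fold change (sham divided by ovariectomized), and a p-value with its adjusted p-value, per the file headers. HISAT2 is named in the submitters' processing notes and a directional library kit in the labels' protocols. For the circRNA caller, genome build and annotation, the name is not given in the sources used here. Another 10 sample names in the lists were not used.

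Counts were scaled by a trimmed mean of M values (30% and 5% trims) over the 738 circRNAs tested, and group differences were fitted with limma 3.58.1 (voom, group as the term) in R 4.3.3, with Benjamini-Hochberg adjustment over all circRNAs tested. Counts are packed in lists, and limma voom was fitted to the unpacked values. Normalized reads are counts divided by the resulting library factor. CircRNAs listed in at least 5 libraries were also tested by exact permutation of the group labels, and classes were compared within libraries by exact two-sided sign-flip tests. Class-wide group measures were planned with an exact test and are given without one, since they summarize the members. Both analyses were tested on simulated data. Alternatives covered scaling, filters, listing at 5 or more reads, the compared class, leaving out each library and a replicate block. Replicate numbers were not taken to pair the samples in the main fit.

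No sequences are printed, because only a gene table was used as reference. Named circRNAs are the 10 with the most reads, those in the limma fit, those listed in all 10 libraries, the 3 smallest p in each direction of both tests, the 3 longest and 3 shortest, the 3 most abundant in a single library, the 5 leading loci, and those with p under 0.05 in the authors' table. The members and lists were chosen with earlier results of these data known.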

Additional observations from a re-analysis of the deposited data

Results flagged for a closer look

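In 9 of 72 groups of 5 normalized values examined (intergenic circRNAs or loci in 1 treatment group), 1 library lay far from the other 4 by Dixon's test at the 95% level, which flags about 1 in 20 groups by chance. Some share reads, since a locus contains its circRNAs.

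For the TRDN locus, sham replicate 5 had 313 normalized junction reads, against 12 to 75.5 in the other sham libraries. Its circRNA novel_circ_0008816 had 269.6 there, against 12 to 46.3, and 198.5 in ovariectomized replicate 4, against 4.34 to 43.7 in the rest of that group. Ovariectomized replicate 4 was also apart for novel_circ_0000941 (230.6 against 115.1 to 143.4), novel_circ_0003820 (26.9 against 0 to 7.23) and novel_circ_0017345 of the X chromosome locus (8.67 against 0 to 2.03). It was thus the library that stood apart in 4 of the 9 groups.

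Sham replicate 3 was high for the PANK2 locus (75.4 against 50.5 to 56.5) and for its circRNA novel_circ_0012040 (37.7 against 22.1 to 25.6). Sham replicate 1 was the 1 sham library that listed novel_circ_0006525, with 3.9 normalized reads against 0 in the others. Dixon's test flags any such group, whatever the value.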

How the results depend on the processing

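No intergenic circRNA was called at an adjusted p under 0.05 under any alternative of the limma fit or the exact permutation test. For the exact test this outcome was nearly fixed in advance, since its smallest p passes adjustment only when many circRNAs share it. Its sign-flip form with 5 pairs cannot give a p below 0.0625. Correlations of deviations for each replicate number were low (-0.110 to 0.185), which cannot settle whether the numbers pair the samples. The limma fit with the replicate block called 3 of 738 circRNAs, none intergenic. With it, estimates (log2) turned to 0.25 for novel_circ_0006922, -0.61 for novel_circ_0008811 and 0.49 for novel_circ_0002051. It gave 0.94 for novel_circ_0009373 and 0.23 for novel_circ_0000941, against 2.06 and 1.82. In the exact sign-flip form of the block, novel_circ_0011145 had p = 0.0625, the smallest that 5 pairs can give, and novel_circ_0006525 p = 0.125. Differences of class means cannot change under the block by construction. With library totals as scaling, estimates turned to 0.08 (novel_circ_0006922), 0.11 (novel_circ_0003030), 0.08 (novel_circ_0011278), 0.03 (novel_circ_0012040) and 0.03 (novel_circ_0012042). For novel_circ_0003030 it was 0.01 with scaling over all listed circRNAs, 0.01 with the wider filter and 0.10 with no filter. A trend in place of weights gave 0.03 for novel_circ_0006922. Without a filter limma called 30 of 8721 circRNAs, none intergenic. Summed non-junction over summed junction reads moved the group difference to -198.2 (676.6 ± 139.3 and 478.4 ± 330.8). Most of the summed non-junction reads lay at novel_circ_0003475, which ovariectomized replicates 1 and 2 did not list. Leaving out 1 library at a time, the share difference ran from -0.000438 to 0.367 points, the number listed from -5.35 to 2.5 and the ratio from -7.72 to -3.31. Signs changed in 16 of 195 such estimates for single circRNAs, and the cause was not tested. Their ranges were -0.36 to 0.49 for novel_circ_0006922, -0.60 to 1.02 for novel_circ_0008811, -1.28 to 0.25 for novel_circ_0008816, -0.00 to 0.36 for novel_circ_0010234, -3.17 to 0.59 for novel_circ_0002051, -0.32 to 0.13 for novel_circ_0003030, -0.03 to 0.23 for novel_circ_0017350, -0.20 to 0.09 for novel_circ_0011278, -0.32 to 0.07 for novel_circ_0012040 and -0.42 to 0.10 for novel_circ_0012042. Intronic in place of exonic circRNAs gave differences of -2.4 bases in spliced length, 0.612 in non-junction reads per junction read, 1.1 in reads per circRNA (exact permutation, adjusted p = 0.0312) and 0.00237 points in the share listed once. Without the 5 leading loci, reads per circRNA turned to -0.3. The settings without a locus and the scaling over all listed circRNAs were chosen after seeing the data. Listed in fewer than 5 libraries, 194 of 248 entered neither test as fitted.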

Other observations

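Both strands of 1 small region on chromosome 21 gave intergenic circRNAs beside very many non-junction reads. On the plus strand, chr21:40122379-40123847 held 5 circRNAs with 29 junction reads in 5 libraries and 6050 non-junction reads for each. On the minus strand, chr21:40121852-40125402 held 3 circRNAs with 12 junction reads in 2 libraries and 6438.2 for each. No gene of the table covers either, and the region was singled out after its values were seen.

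Of the 29 loci with 2 or more intergenic circRNAs, 2 were listed in 1 group only, while 54.4% of single intergenic and 45% of exonic circRNAs were, taken one by one. The DQA locus at chr20:25248292-25303448, over DQA and LOC101118514, had 46 reads in 3 libraries, all sham, at 11.2 ± 14.9 normalized reads (SD, n = 5). The 2 circRNAs of chr14:24244232-24341402 had 14 reads in 2 libraries, both sham. These summed values were not tested between groups.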
